A study of Mus musculus with 11 samples.

Results

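The strong distal sites described here are 890 of the 153396 accessible regions (peaks) that the study counted in pubertal mouse mammary epithelium by ATAC-seq, in which a transposase cuts and tags open chromatin. They were chosen by 3 limits. Each lay over 10 kb from the transcription start site (TSS) of any protein-coding transcript in the annotation used (GENCODE vM21, basic transcripts). Each had a mean of at least 8 CPM (the count of a peak for every 1000000 counts of its library over all peaks) in all 4 cell populations. The highest population mean was at most 1.5 times the lowest. Of the 153396 peaks, 106497 were distal by the first limit. Of these, 3545 reached 8 CPM in every population, and the 890 members were the part of them with a ratio of at most 1.5. The other 2655, called strong unequal distal peaks below, had a higher ratio. The CPM values chose the members, so their levels and their evenness are given as a description and not tested. A ratio of means within 1.5 is a limit on the means and does not show that the populations were the same at a site.

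The 4 populations were basal and luminal cells sorted from micro-dissected terminal end buds (TEBs, bulbous tips that lead duct growth at puberty) and from the ducts behind them. All came from pooled 5-week-old female C57BL/6 mice that carried E-cadherin-GFP. All cells were negative for Ter119, CD31 and CD45 and positive for CD29 and CD24, and basal and luminal cells were separated by low and high GFP. Basal duct cells gave 2 libraries, numbered 1 and 3, and each of the other populations gave 3. A further basal duct sample was discarded in the study for low cell number and is not analysed here. The replicates came from independent pools, and whether equal numbers in different populations mark the same pool was not given in the sources used here.

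Distal accessible regions include enhancers, which bind transcription factors and differ widely between cell types, insulators bound by CTCF, and start sites of noncoding or unannotated transcripts. CTCF holds chromatin loops and binds much the same sites in most cell types. AP-1, made of Jun and Fos family proteins, occupies enhancers of many epithelial cells, and SP/KLF factors bind GC-rich promoters, many of which lie in CpG islands and are open in nearly all cells.

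The sequences that show the kinds of site among the members are printed first, all from mm10 (GRCm38), plus strand, 5′ to 3′. The first group holds the middle 300 bp of the strongest member, of the strongest of a set of near-identical members, and of a start of Zswim6. Capitals mark matches on either strand to the SP/KLF letters GGGCGGG.
4932412D23Rik (chr16:42875525-42875824): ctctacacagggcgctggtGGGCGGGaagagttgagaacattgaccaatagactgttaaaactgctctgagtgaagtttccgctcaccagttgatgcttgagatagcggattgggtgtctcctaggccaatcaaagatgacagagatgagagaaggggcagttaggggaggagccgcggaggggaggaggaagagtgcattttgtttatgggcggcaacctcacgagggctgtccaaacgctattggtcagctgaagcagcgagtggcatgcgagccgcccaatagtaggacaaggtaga
Gm21769 (chr8:20122451-20122750): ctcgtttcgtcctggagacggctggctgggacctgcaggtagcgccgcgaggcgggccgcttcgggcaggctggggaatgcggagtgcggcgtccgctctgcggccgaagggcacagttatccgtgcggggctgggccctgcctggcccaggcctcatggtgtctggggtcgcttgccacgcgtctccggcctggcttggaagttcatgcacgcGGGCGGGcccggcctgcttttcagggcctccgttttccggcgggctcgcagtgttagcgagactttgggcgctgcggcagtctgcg
Zswim6 (chr13:107890179-107890478): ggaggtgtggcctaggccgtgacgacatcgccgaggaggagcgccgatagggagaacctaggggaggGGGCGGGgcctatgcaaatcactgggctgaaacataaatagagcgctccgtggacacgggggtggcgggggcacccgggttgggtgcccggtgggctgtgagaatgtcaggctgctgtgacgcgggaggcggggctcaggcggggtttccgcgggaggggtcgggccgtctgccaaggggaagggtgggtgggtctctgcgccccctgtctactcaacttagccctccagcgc
The second group holds 120 bp around the CTCF core (the strong inner part of the CTCF binding sequence, searched with no mismatch) in the 6 strongest members that had one in their middle 300 bp, named by the nearest protein-coding TSS. Capitals mark the core on either strand.
Chd2 (chr7:73618461-73618580): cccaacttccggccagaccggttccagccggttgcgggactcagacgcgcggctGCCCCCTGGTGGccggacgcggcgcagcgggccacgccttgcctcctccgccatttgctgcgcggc
Efna5 (chr17:62784013-62784132): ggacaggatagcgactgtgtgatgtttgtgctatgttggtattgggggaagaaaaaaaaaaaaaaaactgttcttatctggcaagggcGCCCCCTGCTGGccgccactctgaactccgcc
Oxgr1 (chr14:120137991-120138110): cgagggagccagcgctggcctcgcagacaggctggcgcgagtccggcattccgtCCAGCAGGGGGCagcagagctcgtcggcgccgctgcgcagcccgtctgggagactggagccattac
Phlda3 (chr1:135753036-135753155): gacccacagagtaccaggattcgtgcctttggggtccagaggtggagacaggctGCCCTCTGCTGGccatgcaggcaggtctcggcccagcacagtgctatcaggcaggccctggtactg
Wwc1 (chr11:36001437-36001556): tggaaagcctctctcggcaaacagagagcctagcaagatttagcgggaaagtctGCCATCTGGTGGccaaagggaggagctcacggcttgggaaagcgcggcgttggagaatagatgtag
Bcan (chr3:87987083-87987202): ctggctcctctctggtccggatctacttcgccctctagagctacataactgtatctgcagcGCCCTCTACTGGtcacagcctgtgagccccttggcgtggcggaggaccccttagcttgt
The third group holds 2 of the strongest members with the AP-1 letters TGANTCA outside CpG island-like sequence, with the AP-1 matches in capitals. The Kdelr2 window is a tandem repeat that carries the match 4 times, and the Cd9 window is single-copy intron sequence with 1 match.
Cd9 (chr6:125467834-125468133): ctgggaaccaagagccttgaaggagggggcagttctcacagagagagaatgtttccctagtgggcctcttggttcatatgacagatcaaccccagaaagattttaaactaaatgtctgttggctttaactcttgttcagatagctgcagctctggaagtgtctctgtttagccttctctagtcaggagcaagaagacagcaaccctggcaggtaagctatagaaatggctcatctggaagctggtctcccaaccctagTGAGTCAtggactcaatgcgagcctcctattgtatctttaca
Kdelr2 (chr5:143414334-143414633): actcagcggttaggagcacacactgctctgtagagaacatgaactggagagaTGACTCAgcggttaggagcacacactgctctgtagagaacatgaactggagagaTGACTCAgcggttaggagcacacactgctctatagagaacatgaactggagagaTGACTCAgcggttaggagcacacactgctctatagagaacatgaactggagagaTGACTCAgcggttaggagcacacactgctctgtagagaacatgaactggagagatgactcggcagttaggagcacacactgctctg

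Total counts in peaks were 1821942 to 2489582 in the basal TEB libraries, 2960093 to 5561051 in the luminal libraries and 6816197 and 9986384 in the basal duct libraries. The sort was checked at promoters. Summed CPM over 9 basal marker promoters was 237 to 243 in basal duct, 135 to 196 in basal TEB and 30.2 to 41.2 in luminal libraries. Over 11 luminal marker promoters it was 314 to 388 in luminal, 183 to 190 in basal duct and 115 to 134 in basal TEB libraries. Within this list Kit and Esr1 went the other way. Kit had 9.80 to 19.7 CPM in basal TEB against 4.32 to 8.62 in luminal libraries. Esr1 had 8.01 and 10.7 in basal duct against 5.74 to 7.73 in luminal libraries. Krt8, Elf5, Prlr and Epcam overlapped between basal and luminal libraries. Promoters of fibroblast, endothelial, immune, adipocyte and pericyte markers, of which 2 or 3 of the 5 or 6 listed for each cell type were measured, each summed to at most 33.65 CPM in any library. Fibroblast promoters gave 29.6 to 33.7 CPM in basal duct, 15.9 to 20.5 in basal TEB and 8.45 to 15.6 in luminal libraries. Endothelial promoters gave 18.1 to 27.3 in basal and 4.31 to 7.77 in luminal libraries, and pericyte promoters 16.2 to 26.8 and 10.1 to 15.9. Immune and adipocyte sums overlapped between basal and luminal libraries. The 2 genes of the immune sum differed from each other. Csf1r had 5.885 to 8.818 CPM in luminal and 0.549 to 1.602 in basal libraries. Coro1a had 5.489 to 11.737 CPM in basal and 3.21 to 7.432 in luminal libraries, which overlap. What part other cell types had was not tested. Peaks over 50% of whose bases are marked as repeats (soft-masked) took 7.03% to 16.2% of the counts in the basal TEB libraries, 4.46% to 7.21% in the luminal libraries and 2.40% to 2.45% in basal duct. The highest shares were those of basal TEB 1 and 3, while basal TEB 2 lay within the luminal range. What part this had in the results was not tested.

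The members took a similar share of every library, from 1.598% in basal TEB 1 to 2.00% in basal TEB 2. The median member stood at 14.3 CPM in basal TEB 1 and at 15.8 to 17.2 CPM in the other 10 libraries. Over all 4 population means, the median member had 16.3 CPM, and members ranged from 8.16 to 182 CPM. Their ratio of highest to lowest population mean ranged from 1.02 to 1.499, with a median of 1.35. The 8 CPM limit corresponds to 14.6 counts in basal TEB 1 but to 79.9 in basal duct 1, and the lowest count of any member was 5 in basal TEB 1 and 69 in basal duct 1. Libraries of the same population spread most in basal TEB. The median coefficient of variation across members was 23.1% there (n = 3), 7.25% in basal duct (n = 2), 11.8% in luminal duct (n = 3) and 14.0% in luminal TEB (n = 3). The ratio of the highest to the lowest single library had a median of 1.91 over the members.

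**Figure D1:**
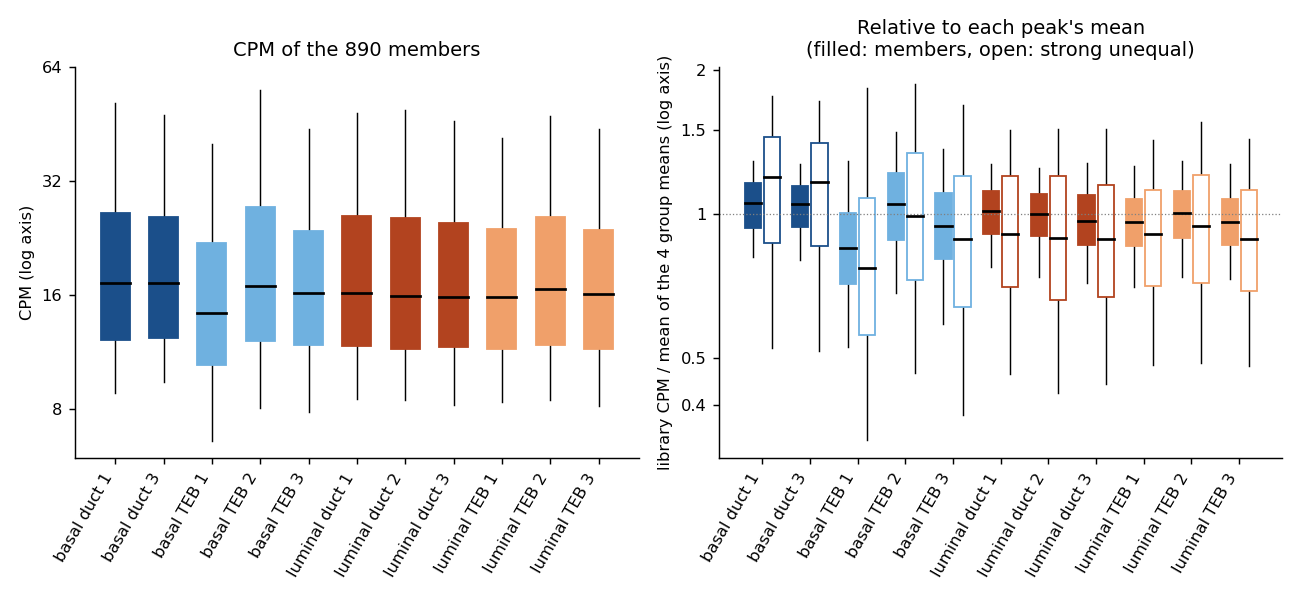
CPM of the 890 members in each of the 11 libraries (left, log axis) and library CPM relative to the mean of the 4 population means for members (filled) and the 2655 strong unequal distal peaks (open, right, log axis). Boxes span the quartiles, black bars are medians and thin lines run from the 5th to the 95th percentile. The median member lay at 14.3 to 17.2 CPM in every library, and the widest filled boxes are those of basal TEB.

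Among the strong distal peaks the members formed no separate class by ratio. The 3545 peaks divided into 23 with a ratio up to 1.1, 175 from there to 5/4, 395 to 1.4, 297 to 1.5, 236 to 1.6, 863 to 2, 1347 to 4 and 209 above 4. The members just inside the ratio limit lay near Kctd15, near Dbx1 and at the start of the lincRNA gene Gm5122, with means over the populations of 51.7, 15.0 and 10.8 CPM. Those just outside lay near Pdp2, Pdia4 and Gm10309, at 13.5, 57.3 and 21.7 CPM, and all 6 ratios round to 1.5. Just inside the limit on level lay sites near Slc9a9, near Cog6 and at a further start of Kcp, with lowest means of 8.04, 8.03 and 8.03 CPM, and just outside it lay sites near Xxylt1, Tmprss13 and Zfp280d, with lowest means of 7.999, 7.999 and 7.993 CPM.

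**Figure D2:**
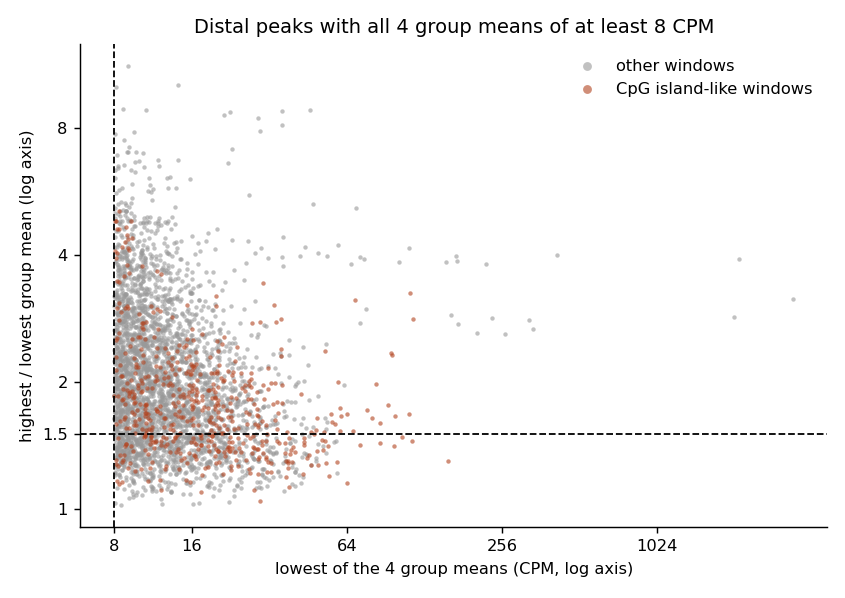
The 3545 distal peaks with all 4 population means of at least 8 CPM, by their lowest population mean (x, CPM, log axis) and their ratio of highest to lowest population mean (y, log axis), with CpG island-like windows in red. Dashed lines are the limits of 8 CPM and of 1.5, and the points run across the line at 1.5 without a gap.

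Within the 1.5-fold range, the population that stood highest at a member was basal duct at 382 members, luminal duct at 203, basal TEB at 164 and luminal TEB at 141. Basal TEB was lowest at 351. This order depended on how libraries were scaled. With the same 890 peaks scaled by TMM factors, basal duct was highest at 551 and basal TEB lowest at 510, and with DESeq2 size factors luminal duct was highest at 340. When libraries were scaled to equal counts at TSS peaks the order turned, with basal TEB highest at 346, luminal TEB at 318 and basal duct at 77. CpG island-like members were highest in a duct population at 144 of 177 (81.4%), and other members at 441 of 713 (61.9%), on the scale of total counts. With TMM factors the shares were 89.8% and 82.9%, and with DESeq2 size factors 87.0% and 68.4%. On the TSS scale they were 39.5% (70 of 177) and 21.9% (156 of 713). The level thus turned while CpG island-like members kept the larger share, by a margin that varied with the scale. The rule used these means, so this describes the chosen peaks only.

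The choice of members was repeated 11 times with 1 library left out, and the CPM of that library was then compared with the mean over the populations at the sites chosen without it. Between 92.8% and 98.3% of the chosen sites lay within 1.5-fold of that mean in each of the 8 duct and luminal TEB libraries. In basal TEB 1, 2 and 3 the shares were 65.1%, 79.0% and 76.5%, and these were the 3 libraries with the lowest counts. At strong distal sites with an unequal ratio the shares were 52.3% to 75.7%. Both kinds of site were chosen with the remaining libraries of the same population. Lower shares at unequal sites follow from that choice, and nothing is read from them. In basal TEB 1, 2 and 3 the median chosen site stood at 0.788, 1.016 and 0.893 of the mean. The share of counts in soft-masked peaks was 16.2%, 7.03% and 9.75% in the same order. The evenness of the members thus held less well in basal TEB libraries and rests on fewer counts there. What part depth or the soft-masked share had in this was not tested.

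edgeR's exact test with Benjamini-Hochberg adjustment over all peaks, at an adjusted p of 0.05, called 16 members between basal TEB and basal duct, all lower in TEB, where 18% of all peaks were called. It called 1 member between luminal TEB and luminal duct, lower in TEB, with 0.766% of all peaks called. Between basal duct and luminal duct it called 179 members, 147 higher in basal duct and 32 lower, with 68.3% of all peaks called. Between basal TEB and luminal TEB it called 4, all lower in basal TEB, with 37.4% of all peaks called. The choice of members limits these counts, and nothing is read from them. The median log2 fold change of the members was -0.35, -0.08, 0.12 and -0.11 in the 4 comparisons, in that order, against 0.02, 0.01, -0.10 and -0.07 for all peaks.

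The counts were not stable. Restricting the test to peaks past edgeR's filter on low counts gave 12 members between the basal populations, all higher in TEB, and 32 between the TEB populations, 30 of them higher in basal TEB. The basal comparison called 140 members without basal TEB 2, 4 without basal TEB 3 and 0 without basal duct 1 or 3, where 0 and 40 members had an unadjusted p under 0.05 in edgeR. Without basal duct 1 or 3 the duct comparison called 58 and 109. These fits leave basal duct with 1 library, which is assumed to vary like those of the other population, so their counts say nothing about stability. The TEB comparison called 16 without basal TEB 1, 50 without basal TEB 2, 1 without luminal TEB 1 and 0 without luminal TEB 2 or 3, where 8 and 9 members had an unadjusted p under 0.05 in edgeR. For the luminal comparison the count was 0 without luminal duct 1 or 2 or luminal TEB 1 or 3, where 43 to 49 members had an unadjusted p under 0.05 in edgeR, and 2 without luminal duct 3 or luminal TEB 2. With all libraries DESeq2 called 2, 3, 90 and 4 members in the 4 comparisons, where in the luminal comparison it gave an adjusted p for only 214 of the 890.

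What the members share in sequence and annotation was not used by the rule, and it was set beside the strong unequal distal peaks, all distal peaks, and 3784 TSS peaks (within 500 bp of a protein-coding TSS) that pass the same 2 limits on CPM. Shares carry exact 95% Clopper-Pearson intervals, which cover counting error only, and neighbouring or copied peaks are not independent. Peaks were judged by their middle 300 bp for letters and CpG content. A window was called CpG island-like at over 50% GC with observed over expected CpG above 0.6. Of the members, 177 (19.9%, 17.3 to 22.7) were CpG island-like, against 13.7% (12.4 to 15.1) of strong unequal distal peaks, 2.21% of all distal peaks and 84.1% of the TSS peaks. The SP/KLF letters stood in 17.8% (15.3 to 20.4) of members, 12.2% (11.02 to 13.5) of strong unequal peaks, 4.08% of all distal peaks and 49.8% of TSS peaks. The intervals of members and strong unequal peaks did not overlap for either feature. By ratio, CpG island-like windows made up 15.7% of strong distal peaks up to 5/4 and 21.1% to 1.5. Past the limit they made up 19.1% to 2, 10.2% to 4 and 7.66% above. Just past the limit, up to a ratio of 2, the CpG share thus lay within the interval of the members. SP/KLF letters stood in 19.7%, 17.2%, 14.4%, 11.1% and 8.61% in the same order.

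The AP-1 letters stood in 256 members (28.8%, 25.8 to 31.9), in 30.4% (28.6 to 32.1) of strong unequal peaks, in 28.6% of all distal peaks and in 3.88% of TSS peaks. The members thus held both kinds of window, and seldom in the same site. SP/KLF letters stood in 49.7% of the CpG island-like members and in 9.82% of the other 713, and AP-1 letters in 6.21% and 34.4%. TFAP2 letters (GCCNNNGGC), bound by AP-2 factors that act in skin and mammary epithelium, stood in 16.4% of members (14.0 to 19.0), 18.5% of strong unequal and 10.8% of all distal peaks. Forkhead letters (TGTTTAC) stood in 3.71% of members, 4.07% of strong unequal and 7.21% of all distal peaks, so the lower share was found in both strong sets. TEAD letters (ACATTCC) stood in 6.4%, 7.5% and 7.7%. ETS letters (CCGGAAGT) stood in 1.57% (0.863 to 2.63) of members and 0.367% of all distal peaks, and the E-box CACGTG in 6.85% and 4.38%. Matches to the oestrogen response element or to the REST element were found in 0 of 890 members, which allows a share of up to 0.414%, and in 0.116% and 0.0808% of all distal peaks.

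Members made mostly of repeat sequence were scarce. Over 50% of the bases were soft-masked in 3 members (0.337%, 0.0696 to 0.982), against 2.98% (2.36 to 3.69) of strong unequal and 10.6% of all distal peaks. By ratio, the share of strong distal peaks was 0 up to 5/4, 0.434% to 1.5, 0.637% to 2, 2.45% to 4 and 18.7% above. Such peaks took more of the counts in basal TEB than in basal duct libraries. The ratio limit is therefore not independent of this feature, and what part it had was not tested. At a limit of 10% the sets lay closer, at 40.3% (37.1 to 43.6) of members, 42.8% (40.9 to 44.7) of strong unequal and 46.6% of all distal peaks. Members are also wider than distal peaks in general. The strongest of the 3 members past 50% was the tandem repeat in an intron of Kdelr2, which encodes a receptor that returns proteins to the endoplasmic reticulum. It was 82.7% soft-masked and lay 10001 bp from a Kdelr2 TSS, the least distance in the set. Its CPM was 71.2 and 56.2 in basal duct, 67.5, 82.7 and 68.1 in basal TEB, 43.9, 50.2 and 60.9 in luminal duct, and 52.9, 54.8 and 51.4 in luminal TEB. Near-identical copies elsewhere in the genome were sought at 95% identity or more over at least 50% of the peak. They were found for 31 members (3.48%, 2.379 to 4.908) and 124 strong unequal peaks (4.67%, 3.899 to 5.543). The mitochondrial genome was matched by 0 of 890 members, which allows a share of up to 0.414%. It was matched by 14 of 2655 strong unequal peaks (0.527%, 0.289 to 0.883). The intervals of the 2 sets overlapped for both features.

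**Figure D3:**
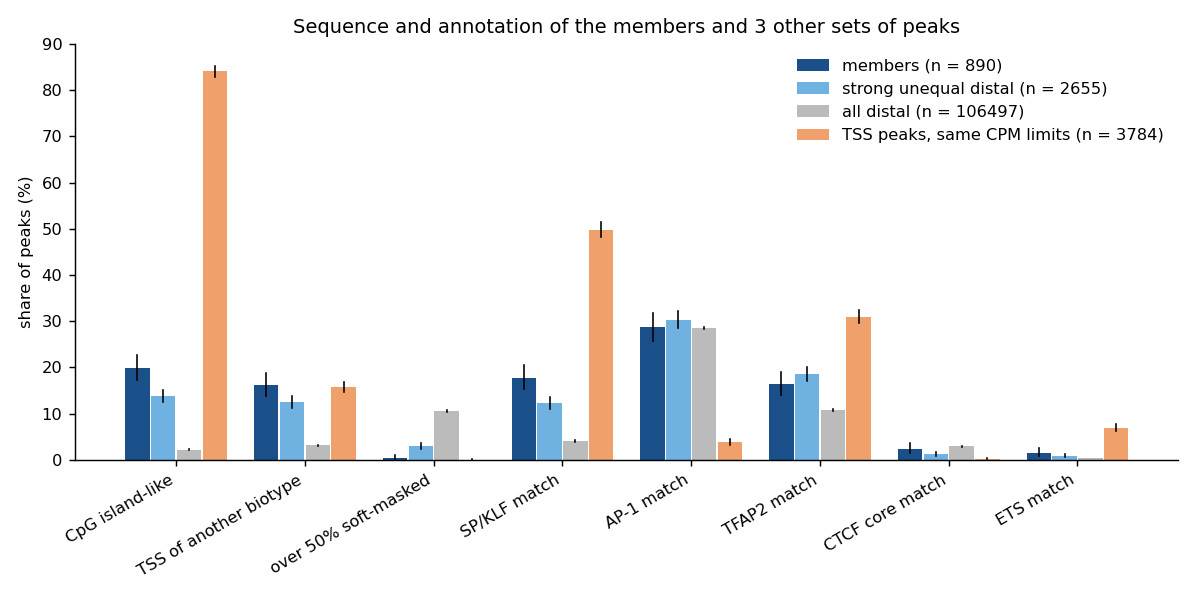
Share of peaks (%, y) with each feature among the members, the strong unequal distal peaks, all distal peaks and the TSS peaks that pass the same CPM limits, with exact 95% intervals as thin lines. CpG island-like windows made up 19.9% of members and 84.1% of TSS peaks, and AP-1 matches 28.8% and 3.88%.

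Strength and evenness were then separated, because the CPM limit itself moves these shares. Distal peaks were divided by their lowest population mean and by the 1.5 limit. At 16 CPM or more, 31.9% (27.2 to 37.0) of 360 members and 25.2% (21.9 to 28.7) of 655 unequal peaks were CpG island-like, and at 8 to 16 CPM 11.7% (9.09 to 14.7) of 530 members and 9.95% (8.67 to 11.3) of 2000. SP/KLF letters stood in 26.4% (21.9 to 31.3) of members and 18.3% (15.4 to 21.5) of unequal peaks at 16 CPM or more, where the intervals did not overlap, and in 11.9% (9.26 to 15.0) and 10.3% (8.96 to 11.7) at 8 to 16 CPM. AP-1 letters stood in 29.8% (25.9 to 33.9) of members and 32.8% (30.7 to 34.9) of unequal peaks at 8 to 16 CPM, and in 27.2% (22.7 to 32.1) and 22.9% (19.7 to 26.3) above. Over 50% soft-masked were 0.377% (0.0460 to 1.36) against 1.90% (1.35 to 2.60) at 8 to 16 CPM, and 0.278% (0.00700 to 1.54) against 6.26% (4.53 to 8.40) above. This last feature is not independent of the ratio limit at either level.

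CTCF cores in the middle 300 bp followed strength in the other direction. Among members, 18 of 530 (3.40%, 2.03 to 5.32) at 8 to 16 CPM held one and 3 of 360 (0.833%, 0.172 to 2.42) at 16 CPM or more. Just below the limit on level, equal distal peaks at 4 to 8 CPM held a core in 10.6% (8.77 to 12.6) of 1020, and those at 2 to 4 CPM in 18.5% (16.6 to 20.5) of 1578. Unequal peaks held fewer at each level, with 6.35% at 2 to 4 CPM, 2.48% at 4 to 8, 1.6% (1.097 to 2.25) at 8 to 16 and 0.153% (0.00400 to 0.848) above, although at the last 2 levels, those of the members, the intervals overlapped. Over the strong distal peaks as a whole the share fell with the ratio, from 3.54% up to a ratio of 5/4 and 2.02% up to 1.5 to 1.91% up to 2, 0.891% up to 4 and 0 of 209 above 4. Altogether 21 members had a core in the middle 300 bp (2.36%, 1.47 to 3.58) against 2.90% of all distal peaks, and 60 (6.74%, 5.18 to 8.59) had one anywhere in the peak. Over whole peaks the order turned, with 3.35% (3.24 to 3.46) of all distal peaks and 4.18% (3.45 to 5.01) of strong unequal peaks, and the members are wider than distal peaks in general. Shares by level were not taken over whole peaks, and what part peak width had in the fall with level was not tested.

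**Figure D4:**
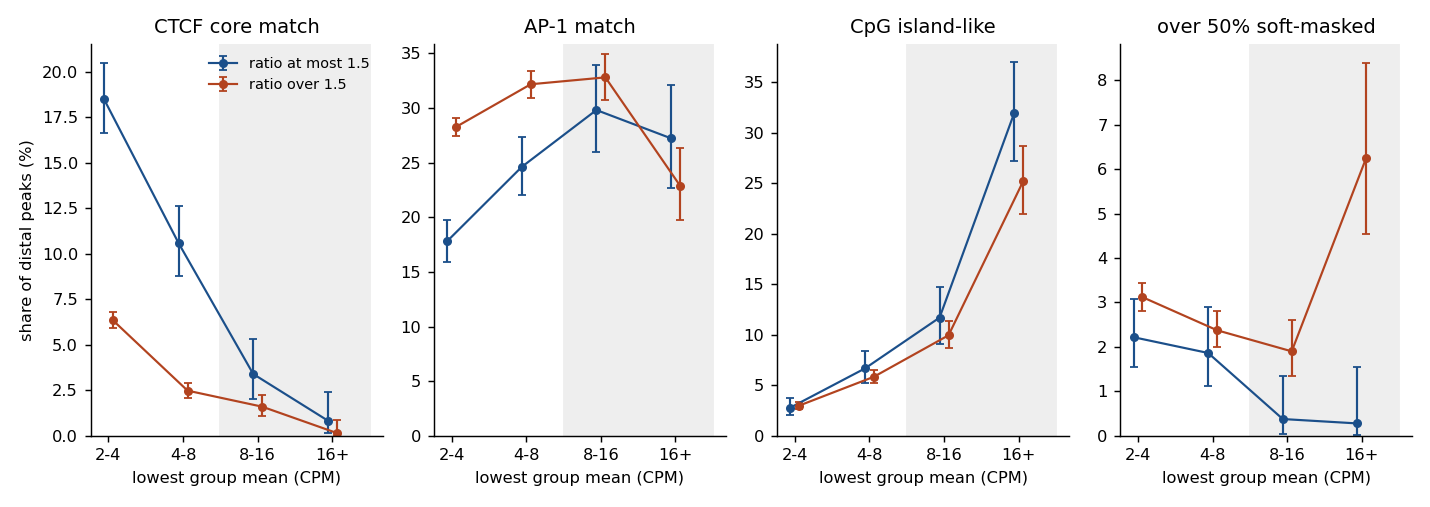
Share (%, y) of distal peaks with a CTCF core, with AP-1 letters, with a CpG island-like window and with over 50% soft-masked bases, by lowest population mean (CPM, x) for a ratio of at most 1.5 (blue) and over 1.5 (red), with exact 95% intervals. Cores, letters and CpG content were judged in the middle 300 bp and soft-masked bases over the whole peak. The grey area holds the levels of the members, and the CTCF share of equal peaks goes from 18.5% at 2 to 4 CPM to 0.833% at 16 CPM or more.

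The strongest CTCF-core member lay 76.1 kb from the TSS of Chd2, a chromatin remodeller gene, in a GC-rich window shown above. Its CPM was 46.7 and 44.6 in basal duct, 37.3, 40.6 and 32.8 in basal TEB, 46.3, 52.7 and 50.8 in luminal duct, and 45.4, 56.7 and 44.3 in luminal TEB. The means were 45.6 ± 1.46 (SD, n = 2), 36.9 ± 3.88, 49.9 ± 3.25 and 48.8 ± 6.89 (SD, n = 3 each), with a ratio of 1.35, and all 3 basal TEB libraries lay below every library of the other populations. The next lay in an intron of Efna5, a gene for an ephrin ligand, at 42.3 and 42.5, 23.1, 42.6 and 39.7, 35.5, 38.5 and 30.3, and 32.8, 28.9 and 37.8 CPM in the same order. There basal TEB 1 was the lowest library, both basal duct libraries lay above all 6 luminal ones, and basal TEB ran from below the luminal range to the level of basal duct. The members nearest to Oxgr1, Phlda3, Wwc1 and Bcan had means of 23, 18.2, 18 and 16.8 CPM and ratios of 1.28, 1.38, 1.28 and 1.48. Among these, the window near Phlda3 also held SP/KLF letters and that near Bcan AP-1 letters.

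Although every member was over 10 kb from a protein-coding TSS of the annotation used (GENCODE vM21, basic transcripts), many lay at other start sites. A TSS of another biotype was within 500 bp of 144 members (16.2%, 13.8 to 18.8), against 12.4% (11.2 to 13.7) of strong unequal and 3.14% of all distal peaks. A further 55 (6.18%) had only a start of a transcript outside that set, from a protein-coding gene, and 691 (77.6%) had no annotated TSS. Of the 144, 62 were lincRNA, 19 antisense and 17 processed-transcript starts, 22 belonged to pseudogenes, and 17 to snRNA, snoRNA, misc_RNA or miRNA genes. CpG island-like windows made up 75 of the 144 (52.1%), 17 of the 55 (30.9%) and 85 of the 691 (12.3%). In RefSeq, 18 members (2.02%) lay within 500 bp of a curated mRNA start, so the set includes some protein-coding promoters that the GENCODE rule did not remove.

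Start sites were most common at the strong end. Among the 20 strongest members 16 lay at a TSS of another biotype and 14 were CpG island-like, and among the 100 strongest 40 and 44 were. At matched level the share at such a TSS was 24.7% (20.4 to 29.5) of members and 20.5% (17.4 to 23.8) of unequal peaks at 16 CPM or more, and 10.4% and 9.80% at 8 to 16 CPM, with overlapping intervals. By position, 392 members (44.0%) were intergenic, 326 (36.6%) were in introns of protein-coding genes, 123 (13.8%) in other genes and 49 (5.51%) in exons. The median member was 897 bp wide, against 322 bp for all distal peaks, and lay 32152 bp from the nearest protein-coding TSS.

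The strongest member covered the start of the lincRNA gene 4932412D23Rik (chr16:42874876-42876473), which also holds a further start of Zbtb20, a zinc-finger repressor gene. It had 155 and 159 CPM in basal duct, 165, 233 and 173 in basal TEB, 210, 207 and 193 in luminal duct, and 161, 191 and 186 in luminal TEB. The means were 157 ± 2.50 (SD, n = 2), 190 ± 37.5, 203 ± 9.06 and 179 ± 16 (SD, n = 3 each), a ratio of 1.29. Basal duct lay below every other library there and basal TEB 2 was the highest, and the luminal duct libraries lay above all of luminal TEB and above basal TEB 1 and 3. The Zswim6 member (chr13:107889025-107891633), a zinc-finger gene whose start is a processed transcript in GENCODE and a curated mRNA in RefSeq, had 111 and 92.7 CPM in basal duct, 76.3, 87.2 and 85.8 in basal TEB, 82.4, 93.3 and 82.6 in luminal duct, and 68.1, 80.0 and 67.9 in luminal TEB. Its ratio was 1.42, and luminal TEB was the lowest population, overlapping with basal TEB. The remaining starts among the 8 strongest were Gm43183, with 57.5 and 59, 47.8, 74.3 and 63.2, 78.5, 90.5 and 83.4, and 68.4, 87.5 and 81.1 CPM in the same order, and the antisense gene Gm15287, with a mean of 68.8 CPM and a ratio of 1.44. The Gm43183 window held neither SP/KLF nor AP-1 letters.

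A group of 4 of the 5 strongest members was made of near-identical copies on chromosome 8. They lay at the pseudogenes Gm21769 (chr8:20121801-20123400), Gm10060 (chr8:19784210-19785822) and 2610005L07Rik (chr8:20423545-20425275) and near Gm21119 (chr8:20549828-20551475), and aligned to each other at 97.6% to 99.0% identity. Their means were 133, 129, 115 and 101 CPM, and their ratios 1.45, 1.48, 1.41 and 1.43. At Gm21769 the CPM was 164 and 166 in basal duct, 114, 125 and 102 in basal TEB, 138, 134 and 136 in luminal duct, and 109, 118 and 121 in luminal TEB. Basal duct was the highest population at all 4 on the scale of total counts. Reads of a copy can be placed on another, so the level of each is uncertain and they are not separate observations.

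**Figure D5:**
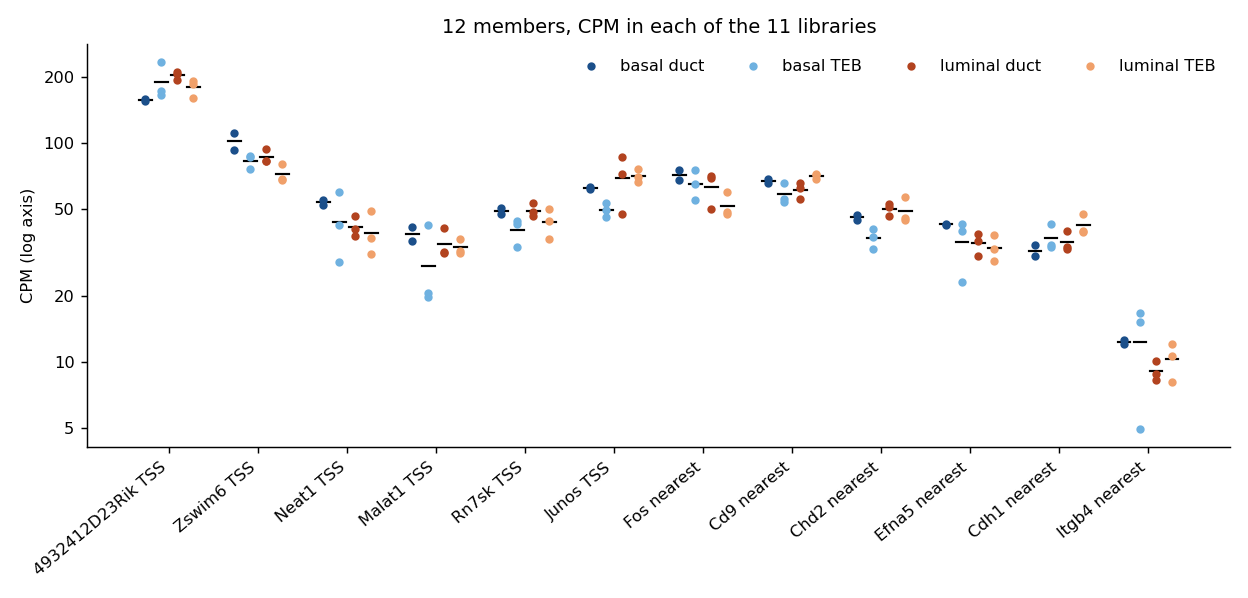
CPM (y, log axis) of named members in each library, as points coloured by population, with population means as black bars. The start of 4932412D23Rik stands highest, at 155 to 233 CPM, and basal TEB points spread widely at several members, from 4.94 to 16.7 CPM near Itgb4.

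Well-known noncoding RNA genes were found among the start sites, picked by name after their values were seen. Rn7sk encodes the 7SK RNA, which holds the elongation factor P-TEFb inactive. Its member had 47.4 and 50.3 CPM in basal duct, 33.5, 44.2 and 42.6 in basal TEB, 48.2, 52.9 and 46.2 in luminal duct, and 36.2, 49.8 and 43.9 in luminal TEB, with a ratio of 1.22. Neat1, the RNA scaffold of paraspeckles, had 52.3 and 54.7, 28.5, 59.8 and 42.1, 40.4, 46.2 and 37.4, and 31.0, 49.0 and 36.8 CPM in the same order. Malat1, an RNA of nuclear speckles, had a member 368 bp from its TSS at 41.5 and 35.5, 19.8, 42.2 and 20.6, 31.6, 31.5 and 40.9, and 32.2, 36.4 and 31.4 CPM, and a weaker one over the TSS with a mean of 10.3 CPM. At Neat1 and Malat1 the basal TEB libraries ran from the lowest value of all 11 to the highest. Between positions 5786434 and 5851833 of chromosome 19 the Malat1 and Neat1 region held 7 members, with means of 10.3 to 44.3 CPM.

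Small nuclear RNA genes formed another such cluster, within Tex14 on chromosome 11. Rnu3b1 and Rnu3b3, which encode the U3 RNA of ribosomal RNA processing, had means of 62.7 and 54.7 CPM. They are copies of each other, so reads between them cannot be assigned with certainty. On the scale of total counts both were highest in basal TEB, with 77.9, 81.9 and 68.1 CPM at Rnu3b1 against 55.6 and 49.4 in basal duct. Rnu1a1, a gene for the U1 RNA of the spliceosome, had members of 29.1 and 11.7 CPM. Of the genes in the X-inactivation region, Ftx had a member of 24.9 CPM (ratio 1.36) and Jpx one of 21.1 CPM (ratio 1.26). The starts of the imprinted RNAs Kcnq1ot1 and Peg13 had 17.6 and 17.2 CPM and ratios of 1.28 and 1.36. The starts of Dancr and Snhg17 had 31.9 and 16.3 CPM.

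Sites near the genes of the AP-1 subunits were also among the members, again picked by name afterwards. Junos, an antisense RNA gene, had a member 22.9 kb from Jun with 63 and 61.3 CPM in basal duct, 49.4, 53 and 46.1 in basal TEB, 72.4, 86.5 and 47.5 in luminal duct, and 69.5, 75.7 and 66.6 in luminal TEB. Luminal duct 3 lay within the basal TEB range. There were 3 members near Fos, at 17.9, 21.3 and 13.8 kb, with means of 62.8, 41.3 and 12.5 CPM and ratios of 1.38, 1.15 and 1.44. The first held SP/KLF letters and the last AP-1 letters. The Cd9 intron site shown above, in the gene of a tetraspanin, had 68.1 and 65.9, 55.4, 65.9 and 53.4, 65.4, 55.2 and 62.4, and 71.5, 72.0 and 68.2 CPM in the same order, a ratio of 1.21. The member in Vmp1, 2107 bp from the microRNA gene Mir21a, had a mean of 56.8 CPM and a ratio of 1.32.

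The 8 lowest ratios, 1.02 to 1.05, belonged to sites of 8.16 to 30.1 CPM. The lowest lay 99.4 kb from Ppp6c, a phosphatase gene, with means of 8.70 ± 0.975 (SD, n = 2), 8.66 ± 2.74, 8.60 ± 0.530 and 8.52 ± 1.78 CPM (SD, n = 3 each) in basal duct, basal TEB, luminal duct and luminal TEB. Its basal TEB libraries nevertheless ran from 6.59 to 11.8 CPM, so the evenness is one of means. The second lay in AI661453 near 1700001C19Rik at 16.3 CPM. The others lay near Eid1, Piezo1, Slc4a5 and Stard13 and at further starts of Kcp and Srl. The Srl site, CpG-rich and with SP/KLF letters, was the strongest of the 8, with 31.7 and 29.9, 27.4, 36.6 and 25, 32, 29.7 and 26.9, and 28.7, 35.3 and 27.0 CPM in the same order. A CTCF core was in 0 of the 8, and 1 held AP-1 letters. Among all members with a ratio up to 5/4, 29.8% held AP-1 and 19.7% SP/KLF letters, and among those from there to 1.5 it was 28.5% and 17.2%.

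The nearest protein-coding genes were read against 14 gene lists, with the nearest gene as a label only and no statement about regulation. Pan-luminal genes were nearest to 6 members (0.674%, against 0.220% of all distal peaks), cell cycle genes to 4 (0.449% against 0.217%) and basal identity genes to 3 (0.337% against 0.331%). Mature luminal and extracellular matrix genes had 2 each (0.225% against 0.215% and 0.327%), and housekeeping and immune genes 1 each. Contractile, luminal progenitor, fibroblast, endothelial, adipocyte and pericyte genes and developmental transcription factors of other lineages were nearest to 0 of 890, which allows a share of up to 0.414% for each, with 0.0291% to 0.238% of all distal peaks. Counts this low do not separate the lists.

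The strongest pan-luminal site lay in an intron of Cdh1, which encodes E-cadherin, the protein that carries the GFP in these mice. It had 30.4 and 34.0 CPM in basal duct, 34.0, 33.3 and 42.6 in basal TEB, 39.6, 32.7 and 33.5 in luminal duct, and 47.1, 39.3 and 39.5 in luminal TEB, with AP-1 letters in its window. The populations overlapped apart from basal duct, which lay below luminal TEB. A site 25.7 kb from Epcam, an epithelial adhesion gene, had 36.0 and 34.9, 22.0, 41.0 and 24.0, 38.8, 43.0 and 38.5, and 37.6, 42.5 and 39.5 CPM, with basal TEB 1 and 3 below all other libraries. For comparison, the Epcam promoter had 25.8 to 30.9 CPM in basal TEB, 51.3 and 43.3 CPM in basal duct and 50.3 to 66.9 CPM in the luminal libraries, so that basal duct 1 reached the luminal range.

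Of the cell cycle list, a site 21.2 kb from Ccne1, the cyclin E1 gene, had a mean of 44.2 CPM and a ratio of 1.29, and a site within Pvt1, 91.5 kb from Myc, had 42.8 CPM and 1.22. The Myc site ran from 29.9 to 59.8 CPM in basal TEB alone. Near basal genes, the sites nearest to Itgb4, which encodes an integrin of hemidesmosomes, and Jag1, a Notch ligand gene, had means of 11 and 10.2 CPM and ratios of 1.36 and 1.15. The site nearest to Col4a2, which encodes a chain of type IV collagen, had a mean of 16 CPM. The site at Gm13003, 112 kb from the Wnt ligand gene Wnt4, had 21.3 CPM and a ratio of 1.5, with basal TEB lowest. The sites nearest to Msx2 and the leukocyte gene Ptprc had 10.1 and 21.1 CPM, and that near Ptprc, at 276 kb, lay at the start of the noncoding gene Gm4258.

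The members were spread over the genome. Their nearest protein-coding genes numbered 767, of which 668 were nearest to a single member, and the most members nearest to a gene were 5. Another member lay within 10 kb of 73 members (8.20%) and within 100 kb of 260 (29.2%). Every chromosome but Y held members, from 18 on X (2.02%, with 2.62% of all distal peaks) to 73 on chromosome 1 (8.20% and 7.46%).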

How the data were processed

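Counts per peak were deposited by the authors as raw read counts of 153396 merged peaks in 11 libraries. Per the study's methods, reads were trimmed, mapped to mm10 with Bowtie2 (2.3.4.3 in the submitters' processing notes) and deduplicated. MACS2 peaks were called per population after pooling its replicates, then merged with bedtools and cleared of blacklisted regions, and counted in SeqMonk, so widths and edges come from the pooled calls. Peak starts are given 1-based.

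CPM used the column total. Distance ran from the peak edge to the nearest of 41438 TSSs of GENCODE vM21 basic protein-coding transcripts. Letters of 23 motifs were searched on both strands of the middle 300 bp: CTCF, AP-1, TEAD, p63/p53, FOX, GATA, RUNX, ETS, SP/KLF, NF-Y, NRF1, YY1, CRE, E-box, ZNF143, REST, RFX, NFI, TFAP2, GRHL, SRF, STAT and the oestrogen response element. A match describes letters, not binding. Copies were sought with minimap2 2.31 and blastn 2.17.0. Pairs of populations were tested with edgeR 4.0.16 (classic exact test, TMM factors) as in the study, and with DESeq2 1.42.0, in R 4.3.3. The test was tried on simulated data. Intervals came from scipy 1.17.1. Soft-masked bases and sequences came from the mm10 reference. Starts of curated mRNAs came from RefSeq.

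Members were named by rule: the 8 highest means, the 8 lowest ratios, the 3 nearest each limit, the 6 strongest with a CTCF core, the 6 strongest at another TSS, the 2 strongest per gene list and the 4 strongest with a copy. Others are said to be picked afterwards. The members, lists and motifs were chosen with earlier results of these data known. Per the series' design text, the replicates came from independent pools of mice. Some members that this rule names are not reported here.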

Additional observations from a re-analysis of the deposited data

How the results depend on the processing

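The number of members was 1910 with a limit of 4 CPM, 360 with 16 CPM, 198 with a ratio of 5/4, 1989 with a ratio of 2 and 430 over 10 kb from a TSS of any biotype, as looser and tighter limits make it, and 780 to 944 with single libraries left out. Other scalings gave 628 (TMM), 812 (DESeq2) and 984 (TSS counts), of which 545, 714 and 654 were members. The CTCF share was 9.21% with 1 mismatch, 6.74% over whole peaks, 6.75% at 4 CPM and 0.833% at 16 CPM (1.94% to 2.82% with single libraries left out). The share at a TSS of another biotype was 10.5% at 4 CPM, 24.7% at 16 CPM and 13.6% at a ratio of 5/4 (15.0% to 16.7%). The soft-masked share was 40.3% with a limit of 10% of bases, 1.35% in the middle 300 bp, 1.15% at 4 CPM and 0 at a ratio of 5/4 (0.227% to 0.476%). The CpG island-like share was 11% with observed over expected CpG of 0.75, 12.8% at 4 CPM, 31.9% at 16 CPM and 15.7% at a ratio of 5/4 (18.1% to 20.4%). An alternative added after seeing the data, members without a copy, gave 2.44%, 14.9%, 0.349% and 18.4% for the 4 shares.

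Members called between basal TEB and basal duct numbered 1 with RLE factors and 2 with DESeq2 (0 to 140 with single libraries left out). Between the luminal populations they numbered 0 with RLE factors (71 at an unadjusted p under 0.05 in edgeR, and 3 of the 214 that DESeq2 tested) and 4 with the filter on low counts (0 to 2). Between the ducts DESeq2 called 90 (58 to 173), and between the TEB populations RLE factors gave 8 and the filter 32 (0 to 50). Deviations of libraries with the same replicate number correlated at r from -0.04 to 0.08, with 0.04, 0.08 and 0.06 between luminal duct and luminal TEB. Counting noise lowers r, and r was not compared with unmatched numbers, so these values cannot decide whether the libraries are pairs. Whether the numbers mark shared pools is not given, and the main test did not pair them. A replicate block in the quasi-likelihood test used only replicate numbers found in both populations. This left out basal TEB 2 in the basal comparison and luminal duct 2 in the duct comparison. The counts were then 115, 4, 193 and 13, against 16, 1, 183 and 4 with all libraries and no block. The exact test without basal TEB 2 called 140 in the basal comparison, so the block and the missing library cannot be told apart there. The causes of the moves in calls were not tested. The ranges with libraries left out in the basal and the duct comparison include fits with 1 basal duct library, which say nothing about stability. Depth limits basal TEB most, at 14.6 to 19.9 counts for 8 CPM.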
